A study of Mus musculus with 8 samples.

Results

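The Schlafen family of the mouse is a set of paralogous genes on chromosome 11, and it was chosen by name: the 7 genes Slfn1, Slfn2, Slfn3, Slfn4, Slfn5, Slfn8 and Slfn9, of the 15853 genes in the deposited tables. All 7 had a row and an adjusted p-value, so none was lost to a filter on low values. A further row, Slfn10-ps, is a transcribed pseudogene of the family and is given beside them as 1 extra gene that is no member. In knockout macrophages Slfn1, Slfn8 and Slfn2 were lower than in control macrophages, and the other 4 members did not pass the authors' threshold, an adjusted p under 0.05. Slfn9 lay almost at 0 on the log2 scale, although it is the closest relative of Slfn8. The members had been picked with the results of this same comparison known, so their fold changes are a description, and no test of the family as a whole was made.

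The libraries are poly(A)-selected RNA-seq of primary bone marrow-derived macrophages, 4 from KO cells and 4 from fl/fl control cells. KO cells had the genotype Mirc11fl/fl Mirc22fl/fl Lyz2Cre/Cre, and control cells the genotype Mirc11fl/fl Mirc22fl/fl Lyz2+/+, so floxed alleles of both microRNA clusters were shared and Cre was in KO cells alone, driven by the myeloid gene Lyz2. In both groups marrow was grown into macrophages for 7 days in L929 conditioned medium and then exposed for 24 h to 250 uM C16:0 (palmitate) together with 25 mM glucose and 10 nM insulin. By its title the series concerns proliferation of lipid-associated macrophages and the clusters that encode miR-23, miR-24 and miR-27. The labels give no age and do not say whether each library came from its own animal, and the spread behind the p-values may thus be partly technical.

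Per-library values are in columns that no label ties to a sample, and they were not used. What describes a gene here is the authors' mean normalized count, log2 fold change and standard error (SE), and depth per library is unknown here. Which genotype is the numerator was read from Lyz2, which KO cells lack on both copies: the authors' deposited table puts it at -9.10 on the log2 scale (SE 0.42, adjusted p = 6.25e-102 by DESeq2). Negative values are therefore lower in KO. Macrophage markers were abundant, with 10 of 10 listed and mean normalized counts from 13108 to 163291. Of them 1 was called higher and 5 lower in KO, while 11.3% of all genes tested were called higher and 11.7% lower. Stromal markers were higher in KO at 9 of the 9 listed, with an implied summed level of 5660 in KO and 1482 in control. For T cells, in which Schlafen genes are also known, the markers Cd3d, Cd3e and Cd3g had no row. Of the 3 tested ones (Cd4, Cd8a, Lck) 0 were called. The summed implied level of the 5 listed T cell markers was 1386 in KO and 1741 in control, nearly all of it Cd4. Cd4 had a mean normalized count of 1540, whereas Trac, Cd2, Cd8a and Lck had means from 2.54 to 11.4, near the floor. Neutrophil, B cell and dendritic cell markers had 0 calls among 6 tested. With so few genes, 0 calls say little beside the 23.0% of all genes tested that were called. The part of these other cells in the Schlafen values was not tested, and in bulk RNA fewer cells of a type cannot be told apart from less RNA per cell.

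Schlafen proteins share an N-terminal domain that in several members binds and cuts RNA, and the long members add a helicase-like region. Many of the genes are induced by type I interferon, and the family was first described in developing mouse T cells, where members restrain growth. In macrophages they change during differentiation and on activation. Type I interferon acts through its receptor and the kinases Jak1 and Tyk2, after which a complex that holds Irf9 binds interferon response elements in promoters.

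The members form 1 cluster on chromosome 11 (mm10, GENCODE M21), from 82951349 to 83215154, a span of 264 kb. In order along the chromosome they are Slfn5, Slfn9, Slfn8, Slfn10-ps, Slfn2, Slfn1, Slfn4 and Slfn3, with Slfn9, Slfn8 and Slfn10-ps on the minus strand and the others on the plus strand. Their coding lengths fall into 3 classes. Slfn1 (1011 nucleotides) and Slfn2 (1134 nucleotides) are short, Slfn4 (1806 nucleotides) and Slfn3 (1920 nucleotides) are intermediate, and Slfn5 (2652 nucleotides), Slfn8 (2730 nucleotides) and Slfn9 (2730 nucleotides) are long. Identity was taken over all positions of the coding alignment, gaps included, so unequal lengths lower it. By this measure Slfn8 and Slfn9 were the closest pair of the family, with 92.7%. Slfn3 and Slfn4 followed with 86.5% and Slfn1 and Slfn2 with 67.0%.

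Promoter sequence was examined because interferon response genes also lay below 0 in this comparison. The 7 promoters, from 250 bases before to 50 bases after the start in RefSeq (GRCm38.p6), were searched on both strands for the core of the interferon-stimulated response element (ISRE), TTTCNNTTTC. Slfn5, Slfn8 and Slfn9 held 1 match each, 3 of 7 members (42.9%), against 3.97% of 11204 genes of the deposited table with a promoter in RefSeq and 14 of 25 (56.0%) classical interferon-stimulated genes. These 30-base stretches, on the strand of each gene with the match in capitals, show that Slfn8 and Slfn9 carry the same letters in it.
Slfn5 (chr11:82951937-82951966, plus strand): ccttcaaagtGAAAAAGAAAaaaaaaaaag
Slfn8 (chr11:83020839-83020868, minus strand): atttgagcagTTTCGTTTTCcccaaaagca
Slfn9 (chr11:82991856-82991885, minus strand): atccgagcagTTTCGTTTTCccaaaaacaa

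The Slfn8 match begins 48 bases before one of 2 annotated starts and the Slfn9 match 45 bases before its start. Slfn8 and Slfn9 promoters were 81.3% identical over the alignment of their 300 bases, gaps included, against 47.6% to 54.7% for the other pairs. With 1 mismatch allowed outside the N positions, all 7 promoters held a match, as did 33.3% of the 11204 genes. For Slfn1, Slfn2, Slfn3 and Slfn4, which had no exact match, the matches with 1 mismatch nearest to the start are shown in capitals.
Slfn1 (chr11:83116777-83116806, plus strand): ggggttctccAAAACTGAAAtcgggaccta
Slfn2 (chr11:83065043-83065072, plus strand): gaggcagggcTTTCACTTCCtggagggtga
Slfn3 (chr11:83191300-83191329, plus strand): agggactctgGTAAAAGAAAgcaaaggcgc
Slfn4 (chr11:83175022-83175051, plus strand): aataaataaaTAAAATGAAAatttaaaaaa

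The gamma-activated site TTCNNNGAA was found in 0 of 7 promoters, against 8.35% of the same 11204 genes, so no ISRE match overlapped one. In Slfn5 a further pair of 1-mismatch matches overlapped the exact one. A match describes the letters in the window and is not a measured binding site.

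Slfn1, the founding member of the family, which slows growth when forced on in mouse thymocytes, had the largest difference. By the authors' deposited table it was 3.19-fold lower in KO, or -1.68 on the log2 scale (SE 0.66, adjusted p = 0.0496 by DESeq2). Of the 14619 genes tested, 0.164% had a lower log2 fold change. The 95% interval built from the deposited values ran from -2.97 to -0.38, so the size of the fall was poorly fixed, and its adjusted p stood just under the threshold. The call was lost without the filter on the mean (adjusted p = 0.0537) and under both centrings of the fold changes (adjusted p = 0.0505 and 0.0614).

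Slfn2, the other short member, is needed for quiescence of T cells and monocytes in mice and protects transfer RNAs from cleavage in mouse T cells. In the authors' deposited table it fell by 0.62 on the log2 scale (SE 0.19, adjusted p = 0.00747 by DESeq2), a 1.54-fold difference, at a mean normalized count of 28741. Its 95% interval, from -0.99 to -0.25, was narrower than that of Slfn1. Of all members Slfn2 had the smallest adjusted p.

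Slfn4, an intermediate member whose transcript falls as mouse monocytes become macrophages, had nearly as low a value as Slfn1 but no call. The authors' deposited table gave it -1.47 on the log2 scale (SE 0.75, adjusted p = 0.14 by DESeq2), with an unadjusted p of 0.0479 and a 95% interval from -2.93 to -0.01. Slfn3, which lies 1113 bases downstream of Slfn4 and has been linked to mouse regulatory T cells and to differentiation of rodent intestinal cells, was at -0.35 (SE 0.19, adjusted p = 0.182 by DESeq2) in the authors' deposited table. Its interval ran from -0.73 to 0.03. The estimates of these neighbours were unlike, but the interval of Slfn4 covered the value of Slfn3. No covariance of the 2 fold changes was at hand, and the difference was not tested.

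**Figure D1:**
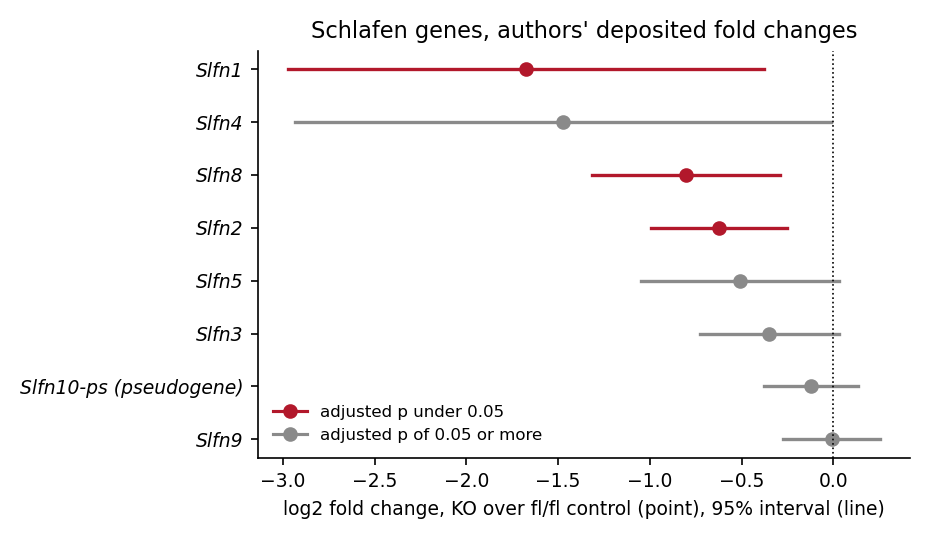
Log2 fold change of each Schlafen gene, KO over fl/fl control (horizontal axis), as points with 95% intervals computed from the authors' standard errors, from the lowest value at the top to the highest at the bottom. Slfn1, Slfn8 and Slfn2, in red, have an adjusted p under 0.05, while the wide interval of Slfn4 ends at -0.01 and that of Slfn9 is centred almost on 0.

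Slfn8, a long member with the helicase-like region, was 1.75-fold lower in KO. The authors' deposited table gave -0.80 on the log2 scale (SE 0.26, adjusted p = 0.0137 by DESeq2), with a 95% interval from -1.32 to -0.29. Slfn9, the next gene along the same strand, stood at -0.01 (SE 0.13, adjusted p = 0.972 by DESeq2) in the authors' deposited table, with an interval from -0.27 to 0.25, and its sign turned when fold changes were centred on the summed group means (0.05). The lower end of the Slfn9 interval, -0.27, lay only just above the upper end of the Slfn8 interval, -0.29. The difference between the 2 genes was itself not tested, since their fold changes come from the same libraries and have no covariance in the table. The pseudogene Slfn10-ps, on the other side of Slfn8, was at -0.12 (SE 0.13, adjusted p = 0.535 by DESeq2) in the authors' deposited table, with an interval from -0.38 to 0.13. Slfn5, whose human counterpart acts in the nucleus and restrains interferon-driven transcription, had a mean normalized count of 37306. In KO it stood at -0.51 (SE 0.28, adjusted p = 0.173 by DESeq2) on the log2 scale of the authors' deposited table, with an interval from -1.05 to 0.03.

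Slfn8, Slfn9 and Slfn10-ps are near copies, which bears on how firmly their reads can be assigned. Of the distinct 31-base words in their annotated transcripts, 26.7% for Slfn8, 19.8% for Slfn9 and 32.4% for Slfn10-ps also occur in another Schlafen gene. Slfn3 (15.9%) and Slfn4 (15.3%) shared words mainly with each other, Slfn2 shared 8.14% and Slfn1 1.96%. For Slfn5 the share was 0%. Values of the 3 near copies, and to a lesser degree of Slfn3 and Slfn4, are uncertain to the extent that reads of shared stretches were divided among them. The part of shared reads in the gap between Slfn8 and Slfn9 was not tested. Slfn5 shares no such words, but the antisense transcript Slfn5os overlaps it, and the sources used here do not say if counting used strand. Whether reads of the overlapping stretch were told apart is therefore unknown.

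Together, 3 of 7 members (42.9%) were called and all 3 were lower in KO, while 23.0% of the 14619 genes tested were called in either direction and 11.7% were called lower. With fold changes centred on the summed group means, 16.0% of all genes tested were called higher and 6.57% lower, and 2 members were called. As the members were chosen with these results known, nothing is read from that count. All 7 log2 fold changes were below 0, with a median of -0.62, against 7406 of the 14619 genes below 0 and a median of 0.00 over all genes tested (-0.0040). The 7 values come from the same 8 libraries and are not independent of each other.

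Transcript levels are compared per length, as the mean normalized count per kilobase of the longest coding transcript (for Slfn10-ps the longest transcript). Group levels were implied by the authors' deposited mean and fold change, taking both groups as equal in size, so they carry no spread of their own, and whether neighbours in the order differ beyond the spread of libraries cannot be said. Slfn2 stood highest, at 13606 per kb in KO and 20938 per kb in control. Slfn5 followed with 5153 per kb in KO and 7326 per kb in control, then Slfn8 with 1767 per kb in KO and 3087 per kb in control. Slfn9, at 1255 per kb in KO and 1263 per kb in control, and Slfn10-ps, at 1011 per kb in KO and 1101 per kb in control, came next. Slfn2 alone made up 57.4% of the summed level per length of these 8 genes in KO and 59.0% in control.

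The order of the 3 lowest genes was not the same in both genotypes. Slfn1 was at 240 per kb in KO, below Slfn3 at 556 per kb, whereas in control Slfn1 at 767 per kb stood above Slfn3 at 708 per kb. Slfn4 was lowest in both, at 98.9 per kb in KO and 275 per kb in control. The summed level of the 8 genes was 23686 per kb in KO and 35464 per kb in control, a difference in which Slfn2, as the most abundant, weighs most.

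**Figure D2:**
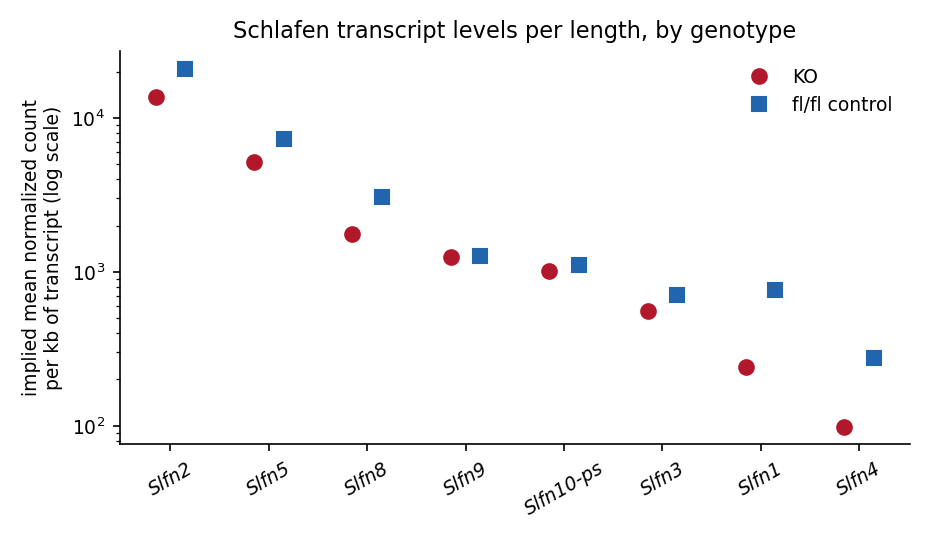
Implied mean normalized count per kilobase of transcript (vertical axis, log scale) for the 8 Schlafen genes, in order of their overall level, with KO as red circles and fl/fl control as blue squares. Slfn2 is highest at 13606 per kb in KO and 20938 per kb in control, Slfn9 is at 1255 per kb in KO and 1263 per kb in control, and Slfn1 and Slfn4 show the widest gaps.

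The standard errors of the members were large for their abundance. Compared with genes whose mean normalized count lay within 1.5-fold, the SE in the authors' deposited table was 6.99 times the median for Slfn4, 6.63 times for Slfn1, 3.70 times for Slfn5 and 3.52 times for Slfn8. It was 2.54 times the median for Slfn2, 2.11 times for Slfn3, 1.82 times for Slfn9 and 1.72 times for Slfn10-ps. For Slfn1 and Slfn4, 99.8% and 99.7% of genes of like abundance had a lower SE. The pair with the largest fold changes thus also had the largest SE, and the genes nearest to 0, Slfn9 and Slfn10-ps, had the smallest of the 8. A large SE can come from 1 library or from all of them, and this was not examined.

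**Figure D3:**
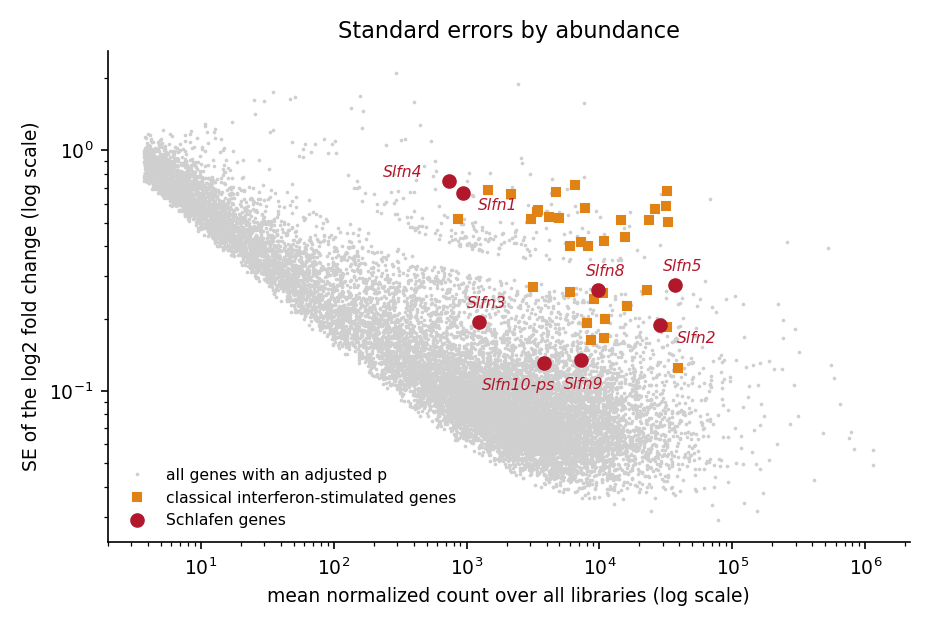
Standard error of the log2 fold change (vertical axis, log scale) against the mean normalized count over all libraries (horizontal axis, log scale), for all 14619 genes with an adjusted p (grey), the 34 classical interferon-stimulated genes (orange squares) and the 8 Schlafen genes (red circles). Slfn1 and Slfn4 stand far above the grey band at their abundance, whereas Slfn9 and Slfn10-ps lie nearer to it.

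Classical interferon-stimulated genes, to which several Schlafen genes are usually counted, shared both features. Of the 34 with a row, 0 were called higher and 4 lower (of all genes tested, 11.3% were called higher and 11.7% lower). The share called lower was thus near that of all genes. A log2 fold change below 0 was seen in 34 of 34, with a median of -0.72, and in 7406 of the 14619 genes tested. These values too come from the same libraries and are not independent of each other. At the median, the SE was 3.52 times that of genes of like abundance for the 7 Schlafen members and 5.83 times for the list. The 4 called genes in the authors' deposited table were Ifi27l2a at -0.86 (SE 0.16), Ifi35 at -0.77 (SE 0.27), Tor3a at -0.51 (SE 0.19) and Samhd1, a phosphohydrolase that limits nucleotides for retroviruses, at -0.39 (SE 0.12). Slfn1 and Slfn4 lay below the lowest member of the list, which was at -1.22, and Slfn9 above the highest, which was at -0.14. The list was chosen with earlier results of these data known.

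Among receptor and signalling genes of the interferon pathway, 0 of 14 were called higher and 3 lower, with a median of -0.33, beside the 11.3% of all genes tested called higher and 11.7% called lower. The 3 included both receptor chains, in the authors' deposited table Ifnar2 at -0.31 (SE 0.07) and Ifnar1 at -0.18 (SE 0.07). Irf8, a macrophage lineage factor of the interferon regulatory family, was at -0.12 (SE 0.04) there. Irf9, the DNA-binding subunit of the complex that acts on response elements, did not pass, at -0.36 (SE 0.19, adjusted p = 0.174 by DESeq2) in the authors' deposited table. With fold changes centred on the summed group means, 4 in place of 7 genes of the 2 lists were called lower, and of all genes tested 6.57% in place of 11.7%.

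Genes tied to the known roles of Schlafen proteins were read against the 11.3% of all genes tested that were called higher and the 11.7% called lower. Of 8 genes of the D-type cyclins and their partners, whose restraint gave the family its early link to growth arrest, 0 were called higher and 1 lower, with a median of -0.07. That gene was Ccnd3, at -0.52 (SE 0.14) in the authors' deposited table, while Ccnd1, the cyclin held down by Slfn1 in mouse cells, was at 0.23 (SE 0.15, adjusted p = 0.282). Cdk6, a kinase partner of D-type cyclins, was at -0.39 (SE 0.15, adjusted p = 0.0526) and the inhibitor Cdkn1a at -0.15 (SE 0.10, adjusted p = 0.274), both in the authors' deposited table. Of 6 genes of transfer RNA cleavage and protection, 0 were called higher and 1 lower, with a median of 0.00 (-0.0044). Ang, the ribonuclease angiogenin, from which Slfn2 shields transfer RNAs in mouse T cells, was the 1 called, at -0.59 (SE 0.12, adjusted p = 1.53e-05 by DESeq2) in the authors' deposited table. By the authors' deposited table its inhibitor Rnh1 stood at -0.14 (SE 0.07, adjusted p = 0.145). Of the transfer RNA methylases that protect against cleavage, the authors' deposited table put Nsun2 at 0.16 (SE 0.07, adjusted p = 0.0854) and Trdmt1 at 0.23 (SE 0.11, adjusted p = 0.128).

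**Figure D4:**
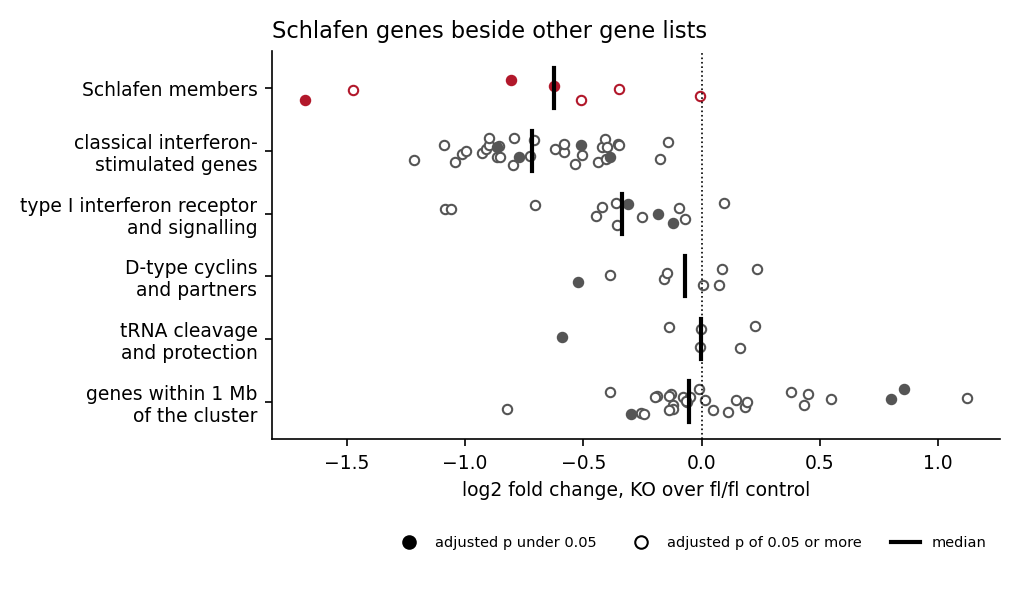
Log2 fold change, KO over fl/fl control (horizontal axis), of the 7 Schlafen members and of 5 other sets of genes, 1 circle a gene with a small vertical spread for legibility, filled where the adjusted p is under 0.05, and a bar at each median. The Schlafen median of -0.62 lies near that of the classical interferon-stimulated genes, -0.72, and the cyclin, transfer RNA and neighbour sets centre near 0.

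Genes beside the cluster were examined to see whether low values extended along the chromosome. Within 1 Mb of the outermost members 3 of 30 genes tested (10.0%) were called, 2 higher and 1 lower, with a median log2 fold change of -0.05, while of all genes tested 23.0% were called, 11.3% higher and 11.7% lower. The gene called lower was Zfp830, 185 kb from Slfn5, which the authors' deposited table put at -0.30 (SE 0.08). The 2 called higher were the monocyte chemokine genes Ccl7, at 0.80 (SE 0.26), and Ccl12, at 0.85 (SE 0.29), in the authors' deposited table. They lie 904 kb and 848 kb from the cluster. Within 0.5 Mb 1 of 20 genes (5.0%) was called. Counted among them but inside the cluster, between Slfn8 and Slfn10-ps, the processed pseudogene Gm11425 was at -0.39 (SE 0.16, adjusted p = 0.0613 by DESeq2) in the authors' deposited table.

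**Figure D5:**
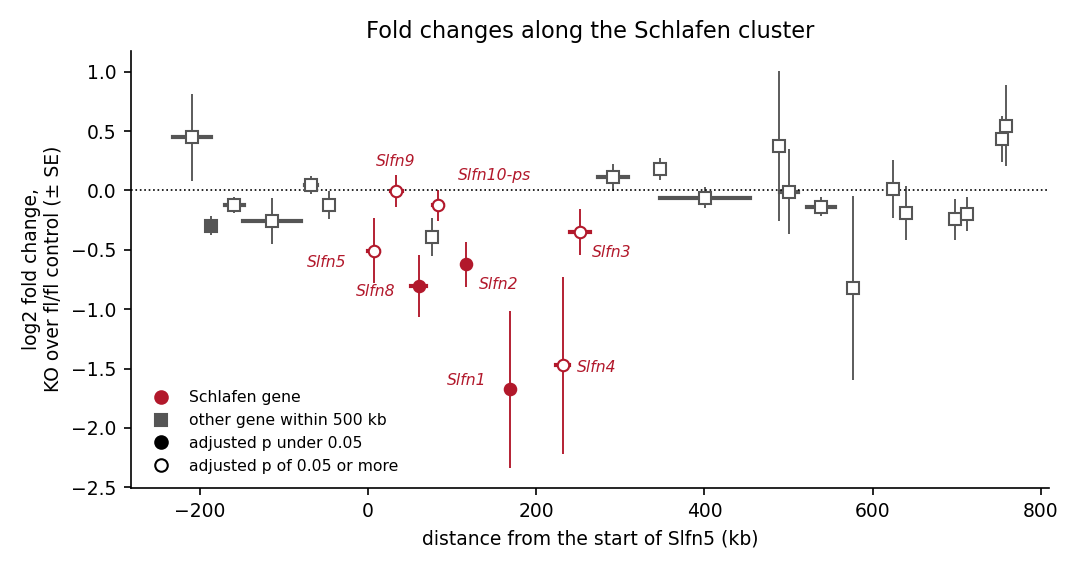
Log2 fold change with its SE (vertical axis) against distance from the start of Slfn5 in kilobases (horizontal axis), for the 8 Schlafen genes (red circles) and other genes within 500 kb of the cluster (grey squares), filled where the adjusted p is under 0.05. The lowest values are those of Slfn1 and Slfn4, Slfn9 and Slfn10-ps lie near 0 inside the same cluster, the flanking gene Ccl5 is at -0.82 with a wide SE, and 1 of the 20 other genes tested is filled.

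The deleted microRNAs bind transcripts through bases 2 to 8, the seed, shown here in capitals because a transcript with a match to it could be bound (RefSeq, GRCm38.p6). A single form of each is printed, and the list is not every deleted form. The form miR-27b-3p, on chromosome 13, has the seed of miR-27a-3p, and miR-24-3p is encoded on chromosomes 8 and 13.
miR-23a-3p: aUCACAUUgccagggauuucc
miR-27a-3p: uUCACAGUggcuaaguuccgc
miR-24-3p: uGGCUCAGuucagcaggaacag

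In the longest annotated 3' UTR of each member, 2 of 7 (28.6%) held a match of at least 7 nucleotides for any of the 3 microRNAs, against 53.4% of 13091 genes tested. A match was the whole seed, or the seed without its base 8 followed by an A, and an 8-nucleotide match has both the whole seed and the A. The UTRs of the members had a median of 922 nucleotides, against 1166 over those genes, so chances of a match were not equal. Among the members the annotated length ran from 53 nucleotides in Slfn3 and 345 in Slfn2 to 3136 in Slfn5. The UTR of Slfn3 thus left little room for a match, yet it is counted among the 7. Both matches were to miR-24, for which 26.3% of the genes tested had one, against the same 28.6% of members. They are an 8-nucleotide match in exon 6 of Slfn5 and, in exon 3 of Slfn8, a 7-nucleotide match that leaves base 8 of the seed unpaired. Exons are numbered in the transcript with the longest 3' UTR, and matches are shown in capitals.
Slfn5 (chr11:82963335-82963342, plus strand): aaaagcaaagCTGAGCCAagccaagcca
Slfn8 (chr11:83002437-83002443, minus strand): cccaccacagTGAGCCAtcgataccac

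Slfn8, with the 7-nucleotide match, was lower in KO, and Slfn5, with the 8-nucleotide match, had a log2 fold change of -0.51 and no call in the authors' deposited table. For miR-23 and miR-27, 0 of 7 members had a match, against 24.7% and 28.8% of the genes tested. Mature microRNAs are not captured in poly(A) libraries, so their loss was not measured here.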

How the data were processed

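The RNA of 8 libraries, 4 KO and 4 fl/fl control by sample title, was processed with FastQC, cutadapt, Salmon and DESeq2 on mm10, per the submitters' processing notes; roles, versions and settings are not given. Per the file headers the authors deposited a mean normalized count (a signal over all libraries), a log2 fold change with its SE, a Wald score, and a p-value with its adjusted p-value. The fold change divided by its SE gave the score to within 1.1e-07. Of 15853 genes, 15849 carried a p-value and 14619 also an adjusted one. The 8 columns of normalized values per library match no sample label and were used in no step. No count model, refit, comparison of replicates or likeness of pattern across libraries was therefore made, and no counting interval is given.

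Intervals (95%) are the fold change plus or minus the normal quantile times the SE. Group means were implied by the mean and the fold change, groups being equal in size. Positions and 3' UTRs were read from GENCODE M21, whose GRCm38 assembly is that of mm10 and in which 95.8% of genes matched by symbol, and promoters and microRNAs from RefSeq. All 7 members matched both sources. Coding sequences and promoters were aligned by edit distance, and identity is over all alignment positions, gaps included. Alternatives changed the filter, the centring, the threshold, the window or the kind of match, and the adjustment steps were tested on simulated data (Python 3.11.15, scipy 1.17.1). The members and gene lists were chosen with earlier results of these data known. Genes were named by rule: every Slfn row, Lyz2, up to 4 genes per list with the smallest adjusted p and each called neighbour. The cell type markers are described as lists, and Gm11425 and Ccl5 were chosen after their values were seen.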

Additional observations from a re-analysis of the deposited data

How the results depend on the processing

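Calls among the 7 members were few enough for single settings to matter. Without the filter on the mean 2 members were called lower, beside 10.5% of all genes tested. At a mean of at least 50 it was 3 members, beside 15.2%, and at a threshold of 0.01 it was 1, beside 6.9%. Under each centring of the fold changes 2 members were called lower. Beside them stood 11.3% of all genes tested when centred on the median fold change and 6.57% on the summed group means. Slfn2 kept its call under all 5 settings and Slfn8 under all but the stricter threshold, while Slfn1 lost its own under 4. No member was called higher under any of them. Slfn9 changed sign, to 0.0539, with fold changes centred on the summed group means. That shift, of -0.06, put 16.0% of genes higher and 6.57% lower, in place of 11.3% and 11.7%. The median of the members was then -0.56. The 2 interferon lists held 34 and 14 genes tested. Of these 4 genes were called lower with that centring, beside 6.57% of all genes tested. At a threshold of 0.01 it was 2 genes, beside 6.9% of all genes tested. Beside the cluster 5.0% of genes tested were called within 0.5 Mb and 12.8% within 2 Mb, against 23.0% of all genes tested. With 1 mismatch 7 promoters held a response element, and with 8-nucleotide sites alone 1 UTR held a seed match, as the search itself became looser or stricter.

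No paired analysis was possible because replicate numbers are absent from the numbered columns, which name neither a sample nor a genotype. For the same reason the planned refits with edgeR, DESeq2 or limma, other pseudocounts and leaving out single libraries were not run, so no call here was checked against the loss of 1 library, and depth per library is unknown.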
